A study of Homo sapiens with 18 samples.

Results

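Interferon-stimulated genes are the genes that a cell switches on when an interferon, a secreted alarm signal of infection, binds its receptor. The set described here holds 48 genes, given by their symbols. All 48 were found among the 60658 Ensembl gene IDs of the expression table (RIG-I stands there under its older symbol DDX58), and 45 passed a minimum of 1 FPKM in 3 or more of the 18 libraries. FPKM counts fragments per kilobase of transcript after scaling for depth, so levels of different genes can be set side by side per length. The same minimum kept 17555 genes of the table in all, and 45 members still passed it when the libraries of the group in which most members were highest were left out. IFIT5, GBP1 and CXCL10 did not pass.

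Type I interferons bind the receptor pair IFNAR1 and IFNAR2, whose kinases JAK1 and TYK2 phosphorylate STAT proteins, STAT2 among them. These join IRF9 in a complex that binds a promoter sequence called the interferon-stimulated response element and turns on genes that block viral entry, copying and assembly, sense foreign nucleic acid, attach the ubiquitin-like protein ISG15 to other proteins, and feed back on the receptor through USP18. Monocytes and macrophages are known for keeping this system at a low resting level and for raising it sharply after they sense microbial RNA or DNA.

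The 18 libraries came from THP1, an established human cell line of acute monocytic leukaemia, and from B11, 1 subclone of it. The labels give a heterozygous NRAS G12D mutation for THP1 and a heterozygous NRAS G12V mutation for B11. All B11 cells also carry a doxycycline-inducible NRAS G12V that the guides cannot cut, GFP, and a vector with Cas9, puromycin resistance and a pair of guide RNAs aimed at either side of the NRAS start codon. NRAS is a GTPase of the RAS family upstream of growth signalling through RAF and ERK, and doxycycline switches the transgene on. Each line was spread over 9 plates, with 3 plates each at 0, 1 and 10 ug/ml doxycycline for 5 days. The plates of B11 came from 1 outgrowth of the clone, so the p-values reflect how much plates differ, and effects of the clone, its editing and its transgene cannot be told apart in its difference from THP1. THP1 received the same doses and has no inducible NRAS. In total RNA of a whole plate, fewer cells of a kind and less RNA per cell cannot be told apart.

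NRAS, the targeted gene, stood at 19.8, 22.0 and 21.1 FPKM in untreated B11, at 24.4, 23.7 and 23.3 at 1 ug/ml and at 28.0, 27.7 and 28.2 at 10 ug/ml. Its mean in THP1 was 23.3 ± 0.348, 23.4 ± 1.97 and 24.2 ± 0.505 (SD, n = 3) at the 3 doses. From 0 to 1 ug/ml, the step in which most members rose, NRAS in B11 was not called, at 0.18 (SE 0.07, adjusted p = 0.0607) on the log2(FPKM + 1) scale, and neither was the difference of that step from THP1 (0.17, adjusted p = 0.23). From 1 to 10 ug/ml, the step in which most members fell, NRAS rose in B11 by 0.22 (SE 0.07, adjusted p = 0.0487). That call was lost with library A as the only library of B11 at 1 ug/ml (0.19). The difference of that step from THP1 was not called (0.17, adjusted p = 0.39). NRAS rose in B11 from 0 to 10 ug/ml by 0.40 (SE 0.07, adjusted p = 0.000276). A single value per gene cannot separate the transgene from the edited gene.

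Estimated depth ran from 11300000 to 16000000 fragments per library. All 12 of 12 monocytic markers reached 5 FPKM in at least 1 library, with a summed level of 2092 to 6222 FPKM, and the summed levels of the T cell, B cell, erythroid, epithelial and fibroblast lists stayed at or under 7.83 FPKM. Below 1 FPKM in every library were 4 of 4 erythroid, 4 of 5 T cell, 2 of 4 epithelial, 2 of 4 fibroblast and 1 of 4 B cell markers, and 1 T cell and 1 epithelial marker reached 5 FPKM. In B11 at 1 ug/ml, 1 Ensembl ID without a gene name took 6.51% of the summed FPKM of library B and 3.76% of that of library C. Counts of members, roles and lists called in a step to or from that group are therefore also given with library A as its only library. Each named call that this ends is given too. The spread of that library is then assumed to equal that of the other groups. A single library also widens the standard error, so a call can end where the difference itself hardly moves. No share over all genes is given for that setting, so its counts have no background beside them.

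The response element is shown first, because it is the sequence that the pathway reads. Its core, GAAANNGAAA, was searched on both strands in the 300 bases from 250 before to 50 after each RefSeq start on GRCh38.p14, where N is any base. Of the 48 members, 38 had a promoter in that table, and 25 of these (65.8%) held the core in at least 1 promoter, against 1195 of 27305 genes (4.38%). Counted by promoter, 29 of 51 (56.9%) held it against 1255 of 35116 (3.57%). The gamma-activated site core TTCNNNGAA, which STAT pairs are known to bind and which shares no required overlap with the first, was in 11 of the 38 members (28.9%) and in 2560 of all genes (9.38%). A match is a run of letters and not a measured binding site. These lines give the stretch from 170 to 80 bases before the start for 5 members that rose at 1 ug/ml doxycycline in B11 and for STAT2, the 1 member that fell there. They read 5′ to 3′ on the gene's strand, with bases of a core match on either strand in capitals, and a match on the opposite strand printed as its reverse complement.
IFI27, chr14:94110566-94110656, plus strand: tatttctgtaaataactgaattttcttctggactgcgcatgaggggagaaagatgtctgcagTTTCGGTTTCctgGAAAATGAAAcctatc
IFI6, chr1:27672272-27672362, minus strand: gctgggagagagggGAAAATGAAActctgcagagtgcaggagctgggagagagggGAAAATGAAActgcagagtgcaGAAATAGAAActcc
ISG15, chr1:1013327-1013417, plus strand: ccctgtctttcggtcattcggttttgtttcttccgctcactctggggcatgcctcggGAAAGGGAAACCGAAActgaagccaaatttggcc
IFIT1, chr10:89392453-89392543, plus strand: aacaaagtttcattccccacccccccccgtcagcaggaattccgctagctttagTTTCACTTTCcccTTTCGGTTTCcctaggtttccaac
EPSTI1, chr13:42992321-42992411, minus strand: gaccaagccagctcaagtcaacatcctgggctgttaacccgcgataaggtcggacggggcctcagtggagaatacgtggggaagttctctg
STAT2, chr12:56360187-56360277, minus strand: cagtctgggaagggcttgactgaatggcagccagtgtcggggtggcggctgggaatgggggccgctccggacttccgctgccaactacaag
In these windows IFI6 held 3 matches, IFI27, IFIT1 and ISG15 held 2 each, and those of ISG15 overlapped. The letters of the core are in neither the EPSTI1 nor the STAT2 window. EPSTI1 has its 1 match nearer the start, at 50 bases before it, and STAT2 has none in the 300 bases. Members without the core rose as well. From 0 to 1 ug/ml in B11, 8 of 13 measured members without it rose and 19 of 22 with it, against 19.8% of all genes.

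At 1 ug/ml doxycycline most members rose in B11, and most stood lower again at 10 ug/ml than at 1 ug/ml. Against untreated B11, 19 members were lower and 6 higher at 10 ug/ml. The summed level of the 48 members was 1363 to 1465 FPKM in untreated B11, 2429 to 2678 at 1 ug/ml and 1121 to 1168 at 10 ug/ml. In THP1 it was 1122 to 1173, 1053 to 1087 and 990.5 to 1038 at the same doses. The sum thus ran highest in the 3 B11 libraries at 1 ug/ml, with no overlap with any other group.

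From 0 to 1 ug/ml, 36 of the 45 members rose in B11 and 1 fell (limma, adjusted p under 0.05), with a median difference of 1.01 on the log2(FPKM + 1) scale. Over all 17555 genes 19.8% rose and 17.3% fell, with a median of -0.01. These were 3472 and 3044 genes, and 4104 and 2356 when libraries were scaled to the sum over named IDs. From 1 to 10 ug/ml, 37 members fell and none rose, with a median of -1.37, where 7.12% of all genes fell and 5.69% rose, with a median of -0.01. With library A alone at 1 ug/ml, 29 members rose and 1 fell in the first step, and 25 fell in the next. The shares of all genes above are from the fit with all 18 libraries, so the counts with library A alone cannot be set against them. Median differences of the members with library A alone were 1.04 and -1.38. In 34 of the 45 members (75.6%) all 3 libraries of B11 at 1 ug/ml stood above all 15 other libraries, which held for 2.51% of all genes tested.

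**Figure D1:**
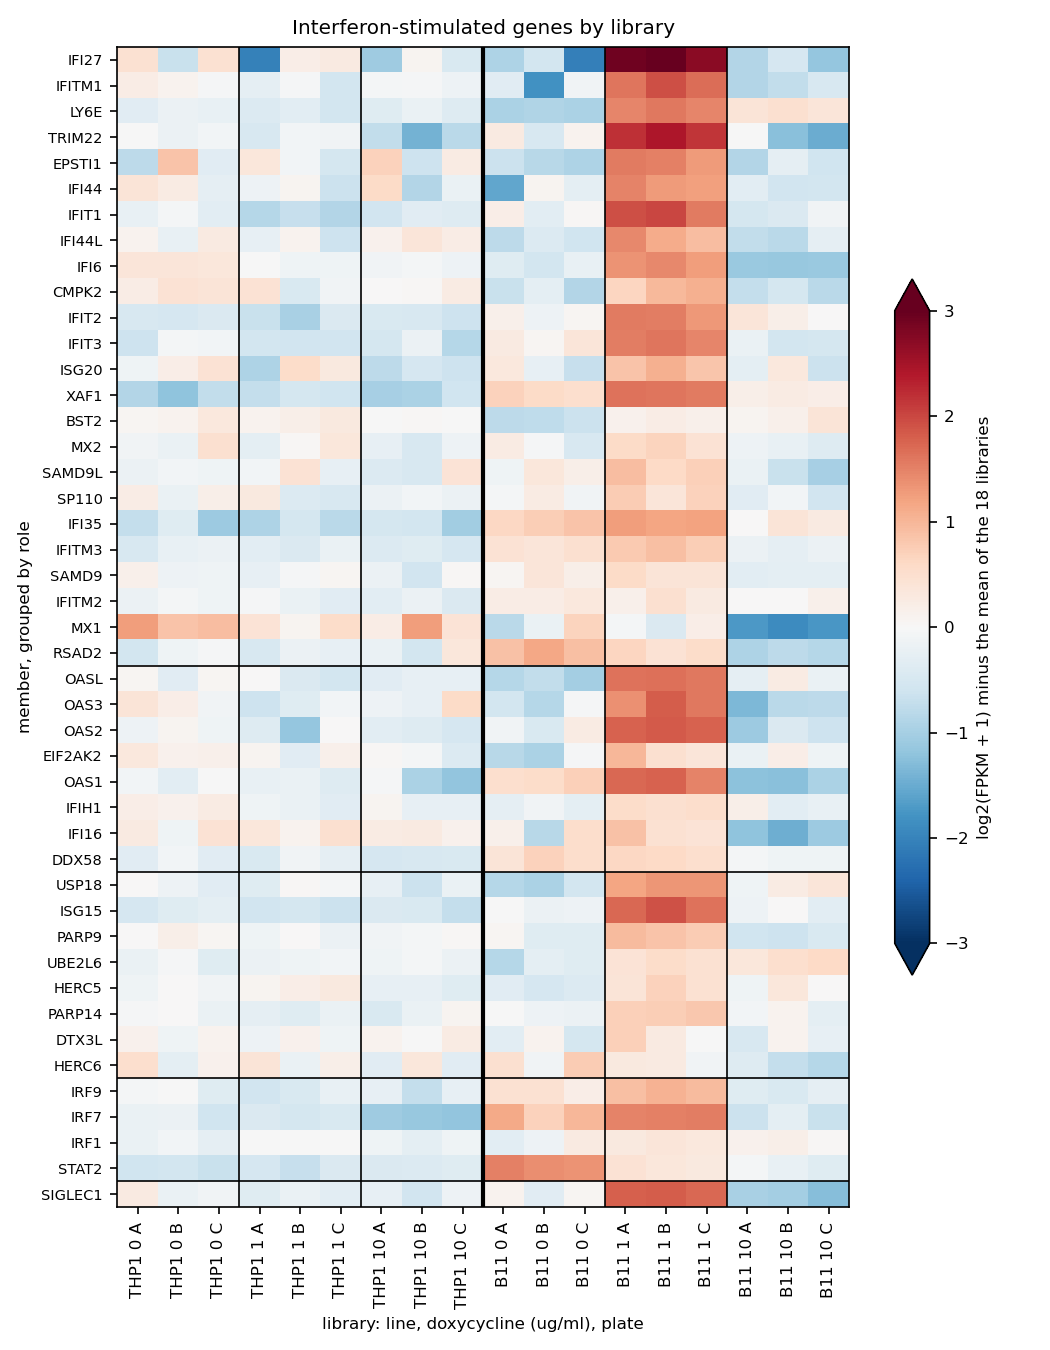
Levels of the 45 members that passed the minimum, one row per gene and one column per library, as log2(FPKM + 1) minus the mean of the 18 libraries; thin horizontal lines part the roles (effectors, sensors, ubiquitin-like and ADP-ribosylation system, transcription factors, cell surface) and the thick vertical line parts THP1 from B11. The 3 columns of B11 at 1 ug/ml are red in most rows, and STAT2 is highest in untreated B11.

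Over the whole span from 0 to 10 ug/ml 6 members rose and 19 fell, with a median of -0.33, against 21.6% of all genes higher and 21.3% lower, with a median of -0.02. The 6 that rose were LY6E, UBE2L6, BST2, USP18, OASL and HERC5, of which HERC5 (adjusted p = 0.0133) was not called without library B at 10 ug/ml (adjusted p = 0.0753). The lowest net values were those of RSAD2 at -1.83, OAS1 at -1.74, MX1 at -1.67, STAT2 at -1.63 and IRF7 at -1.48.

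Effectors, the proteins that act on viruses or infected cells, made up 26 of the 48 members. For this and the roles below, 19.8% of all genes rose from 0 to 1 ug/ml and 7.12% fell from 1 to 10 ug/ml. Of the 24 effectors measured, 19 rose in the first of these steps (median 1.21) and 22 fell in the other (median -1.39). These were 15 and 14 with library A alone at 1 ug/ml. IFI27, a small mitochondrial and nuclear membrane protein on chromosome 14 (94104836 to 94116698, plus strand, GENCODE 29 on GRCh38), moved farthest. IFI27 stood at 4.74, 6.36 and 1.61 FPKM in untreated B11, at 80.3, 95.8 and 70.2 at 1 ug/ml and at 4.91, 6.62 and 3.85 at 10 ug/ml. THP1 libraries gave IFI27 values of 13.8, 5.80 and 13.7 at 0, 1.67, 11.4 and 12.2 at 1 and 4.21, 10.5 and 6.94 at 10 ug/ml. The 3 B11 libraries at 1 ug/ml lay far above the rest, and the other groups overlapped. IFI27 rose by 4.10 (SE 0.55, adjusted p = 2.86e-05) and then fell by 3.78 on the log2 scale (SE 0.55, adjusted p = 0.000364).

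IFI6, a membrane protein that limits flavivirus replication, lies on chromosome 1 (27666061 to 27672218, minus strand). IFI6 gave 66.8, 58.9 and 73.8 FPKM in untreated B11, 220.2, 237 and 207 at 1 ug/ml and 39.4, 38.9 and 39.7 at 10 ug/ml. The THP1 values of IFI6 were 111, 111 and 110.4 at 0, 85.9, 79.4 and 79.4 at 1 and 79.8, 82.7 and 77.6 at 10 ug/ml. No library of one B11 dose overlapped another dose. IFI6 rose by 1.72 (SE 0.07, adjusted p = 1.35e-10) and fell in the next step by 2.46 on the log2 scale (SE 0.07, adjusted p = 6.54e-11), ending -0.74 from its untreated level (adjusted p = 1.14e-06).

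IFIT1 binds viral RNA that lacks the cap methylation of host messages. It had 2.57, 1.51 and 2.21 FPKM at 0, 11.01, 11.6 and 8.24 at 1 and 1.16, 1.31 and 1.90 at 10 ug/ml in B11. THP1 held 1.67, 2.002 and 1.53 FPKM of IFIT1 at 0, 0.741, 0.934 and 0.69 at 1 and 1.10, 1.46 and 1.39 at 10 ug/ml. Its level at 1 ug/ml in B11 lay above every other library, with differences of 1.87 (SE 0.18, adjusted p = 7.85e-07) and -2.20 (SE 0.18, adjusted p = 1.83e-06). IFIT1, IFIT2 and IFIT3 lie next to each other on chromosome 10, and IFIT2 (1.45, then -1.29) and IFIT3 (1.31, then -1.97) rose and fell as well. IFIT5 of the same cluster had 0.847 to 1.37 FPKM in B11 at 1 ug/ml and at most 0.551 in every other library, and was not tested.

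IFITM1, IFITM2 and IFITM3 are membrane proteins that block fusion of viruses with the cell, and they did not move alike. IFITM1 was at 14.8, 4.65 and 17.5 FPKM in untreated B11, at 60.1, 75.0 and 62.9 at 1 ug/ml and at 9.79, 10.9 and 13.3 at 10 ug/ml. For THP1, IFITM1 was 22.3, 20.6 and 18.5 at 0, 15.5, 18.4 and 12.6 at 1 and 18.1, 18.5 and 16.9 at 10 ug/ml. IFITM1 rose by 2.50 (SE 0.31, adjusted p = 1.53e-05) and fell by 2.45 (SE 0.31, adjusted p = 0.000123), all on the log2 scale. Untreated library B was low, and without it the net difference of IFITM1 from 0 to 10 ug/ml turned from 0.05 (not called) to -0.49 (adjusted p = 0.0257).

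IFITM2 was called in neither step, with 181, 181 and 192 FPKM at 0, 173, 215 and 187 at 1 and 156, 156 and 171 at 10 ug/ml in B11. THP1 libraries held IFITM2 at 137, 148 and 142 at 0, 152, 134 and 123 at 1 and 124, 137 and 114 at 10 ug/ml. Its differences were 0.05 (SE 0.09, adjusted p = 0.722) and -0.25 (SE 0.09, adjusted p = 0.0961). IFITM3, the most abundant member in B11 at 1 ug/ml, stood at 277 ± 12.3, 361 ± 21.8 and 178 ± 7.67 FPKM (SD, n = 3) at the 3 doses, rose by 0.38 (adjusted p = 0.00199) and fell by 1.01 (adjusted p = 2.15e-06). IFITM1 and IFITM2 share 351 exonic bases on the same strand, and the family is similar in sequence, so the split of reads among its members is uncertain.

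TRIM22, an E3 ubiquitin ligase that acts against several viruses, was at 10.6, 5.96 and 9.39 FPKM in untreated B11, at 43.4, 51.1 and 42.0 at 1 ug/ml and at 8.55, 3.08 and 2.45 at 10 ug/ml. In THP1 TRIM22 was 8.62, 7.53 and 8.15 at 0, 5.99, 8.15 and 8.05 at 1 and 4.81, 2.62 and 4.52 at 10 ug/ml. TRIM22 rose by 2.30 (SE 0.31, adjusted p = 3.25e-05) and fell by 3.18 on the log2 scale (SE 0.31, adjusted p = 1.18e-05). Its net difference of -0.88 from 0 to 10 ug/ml was called (adjusted p = 0.0326), and that call was lost without untreated library A or C or without library B or C at 10 ug/ml, with adjusted p up to 0.16 among these.

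EPSTI1, a protein named for its induction in epithelial cells by stromal signals, had 2.30, 1.91 and 1.71 FPKM at 0, 14.2, 13.7 and 11.5 at 1 and 1.80, 3.28 and 2.43 at 10 ug/ml in B11. The THP1 libraries of EPSTI1 spread widely, at 1.99, 8.32 and 3.04 FPKM at 0, 5.50, 3.88 and 2.57 at 1 and 7.28, 2.33 and 5.08 at 10 ug/ml. EPSTI1 rose by 2.25 (SE 0.38, adjusted p = 0.00026), with all 3 libraries at 1 ug/ml above the other 15. EPSTI1 fell by 2.03 on the log2 scale in the next step (adjusted p = 0.00274). With library A alone at 1 ug/ml that step was -2.14 and not called.

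LY6E, a lipid-anchored surface protein that restricts coronavirus entry, stayed raised at 10 ug/ml. LY6E stood at 43.8, 44.97 and 44.0 FPKM in untreated B11, at 237, 259 and 236 at 1 ug/ml and at 113, 119.6 and 111 at 10 ug/ml. THP1 values of LY6E were 67.0, 76.2 and 73.4 at 0, 64.6, 68.5 and 58.5 at 1 and 66.0, 74.0 and 65.5 at 10 ug/ml. LY6E rose by 2.43 (SE 0.07, adjusted p = 7.11e-12) and fell by 1.09 on the log2 scale (SE 0.07, adjusted p = 2.84e-07), and its net rise of 1.35 (SE 0.07, adjusted p = 1.35e-09) left all 3 libraries at 10 ug/ml above untreated B11 and all of THP1.

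BST2, or tetherin, which holds budding virus at the cell surface, rose once and stayed up. Its B11 values were 79.5, 80.8 and 88.9 FPKM at 0, 153, 163 and 155 at 1 and 148, 154 and 181 at 10 ug/ml. THP1 had 145, 149 and 172 FPKM of BST2 at 0, 149.5, 157 and 169 at 1 and 137, 141 and 138 at 10 ug/ml. The first step was 0.91 (SE 0.08, adjusted p = 5.19e-07) and the next 0.03 (SE 0.08, adjusted p = 0.866), so untreated B11 lay below every other group, THP1 at 10 ug/ml came next, and the remaining groups overlapped. Between the lines at 10 ug/ml BST2 was not called (0.21, adjusted p = 0.0647).

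Of the remaining effectors measured, XAF1, a proapoptotic protein, went from 47.7 ± 3.37 to 96.7 ± 2.68 and 36.6 ± 0.972 FPKM (SD, n = 3) over the doses and stood at 16.03 ± 2.72 in untreated THP1. MX1, a GTPase that blocks influenza virus, did not follow the others at 1 ug/ml. MX1 was at 3.48, 5.88 and 11.5 FPKM in untreated B11, at 6.58, 4.78 and 8.03 at 1 ug/ml and at 1.39, 1.12 and 1.35 at 10 ug/ml. Its first step was 0.01 (SE 0.32, adjusted p = 0.988). It fell by 1.68 in the next (adjusted p = 0.00318). With library A alone at 1 ug/ml that step was -1.73 and not called. RSAD2, or viperin, which makes a chain-terminating nucleotide, was not called in the first step at -0.44 (SE 0.20, adjusted p = 0.102) and fell by 1.40 in the next (adjusted p = 0.000328), while its neighbour CMPK2, a nucleotide kinase, rose by 1.51 and fell by 1.58.

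IFI44 (rise of 1.92, fall of 1.81) and its relative IFI44L (rise of 1.75, fall of 1.76) returned close to their untreated level. ISG20, an RNA exonuclease, MX2, which blocks HIV-1, IFI35 and SP110, a nuclear body protein, had smaller rises of 1.11, 0.66, 0.47 and 0.58, and each of these calls was lost without 1 or another of the 6 libraries compared (adjusted p up to 0.196 over the alternatives). Their falls were 1.12, 0.82, 0.99 and 0.93. SAMD9 and SAMD9L, which stop translation of poxvirus messages, were not called in the first step (0.25 and 0.61) and fell by 0.75 and 1.37 in the next. With library A alone at 1 ug/ml the step from 1 to 10 ug/ml was not called for IFI44 (-1.97), IFI35 (-1.03) and SAMD9 (-0.878). Nor was it for SP110 (-1.09), ISG20 (-1.05) and MX2 (-0.825). The rises of ISG20 (1.05), MX2 (0.665), IFI35 (0.513) and SP110 (0.735) were not called in that setting either. GBP1, a GTPase that coats bacteria, reached at most 0.913 FPKM in any library and was not tested.

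**Figure D2:**
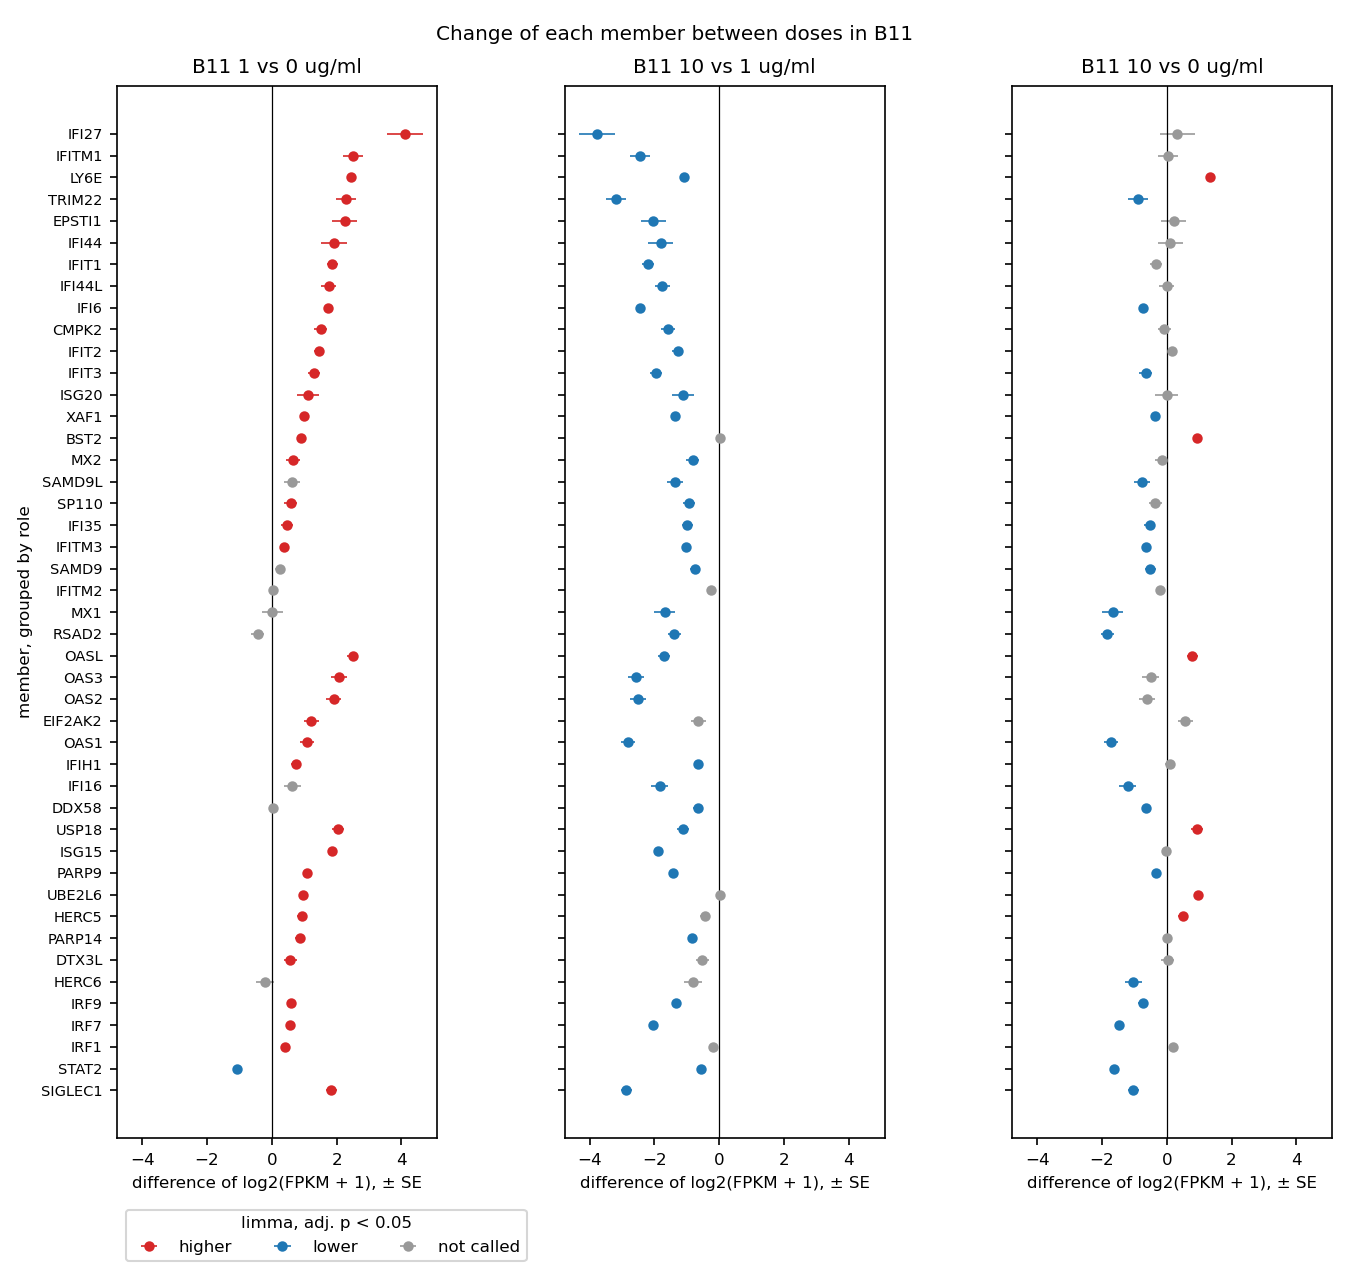
Differences between doses in B11 for each of the 45 members, as differences of log2(FPKM + 1) with bars of 1 standard error, for 1 against 0 (left), 10 against 1 (middle) and 10 against 0 ug/ml (right); red and blue mark members called higher and lower by limma at an adjusted p under 0.05. IFI27 lies farthest out in the first panels at 4.10 and -3.78, STAT2 is the single blue point on the left, and LY6E is the farthest red point on the right at 1.35.

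Sensors of foreign RNA and DNA numbered 8, all measured, of which 6 rose from 0 to 1 ug/ml (median 1.15) and 7 fell from 1 to 10 ug/ml (median -1.77), or 6 and 5 with library A alone. The oligoadenylate synthetases OAS1, OAS2 and OAS3, which lie side by side on chromosome 12 (112906777 to 113011723), make a messenger that sets off RNA decay when they meet double-stranded RNA. OAS1 was at 20.0, 20.7 and 23.4 FPKM in untreated B11, 47.99, 49.8 and 40.8 at 1 ug/ml and 5.28, 5.25 and 6.67 at 10 ug/ml. THP1 libraries showed OAS1 at 13.1, 10.97 and 13.8 FPKM at 0, 11.8, 11.9 and 10.3 at 1 and 13.5, 6.74 and 5.57 at 10 ug/ml. OAS1 rose by 1.08 (SE 0.22, adjusted p = 0.00109) and fell by 2.81 on the log2 scale (SE 0.22, adjusted p = 1.45e-06). The 3 B11 doses did not overlap, and the lowest was 10 ug/ml.

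OAS2 had 15.9, 12.4 and 20.7 FPKM at 0, 61.8, 65.1 and 61.6 at 1 and 7.68, 12.5 and 10.9 at 10 ug/ml in B11, and 15.4, 18.4 and 15.8 FPKM at 0, 12.96, 7.15 and 17.5 at 1 and 13.7, 13.1 and 12.03 at 10 ug/ml in THP1. OAS3 had 5.96, 4.60 and 8.95 FPKM at 0, 25.5, 34.7 and 29.7 at 1 and 3.02, 4.81 and 4.90 at 10 ug/ml in B11, and 12.3, 10.6 and 8.54 FPKM at 0, 5.62, 6.91 and 8.68 at 1 and 8.19, 7.65 and 14.1 at 10 ug/ml in THP1. For both genes only B11 at 1 ug/ml stood clear of all other libraries. The rises were 1.91 (SE 0.24) for OAS2 and 2.08 (SE 0.25) for OAS3, the falls -2.51 (SE 0.24) and -2.57 (SE 0.25).

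OASL, a relative without synthetase activity that boosts RIG-I signalling, was at 0.931, 1.08 and 0.733 FPKM in untreated B11, at 9.76, 10.01 and 9.48 at 1 ug/ml and at 1.90, 3.12 and 2.03 at 10 ug/ml. THP1 gave OASL at 2.62, 1.76 and 2.64 FPKM at 0, 2.52, 1.56 and 1.39 at 1 and 1.77, 1.95 and 1.95 at 10 ug/ml. OASL rose by 2.49 (SE 0.18, adjusted p = 4.32e-08), fell by 1.70 (SE 0.18, adjusted p = 2.32e-05), and kept a net rise of 0.79 (adjusted p = 0.0022).

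Among the other sensors, IFIH1 (MDA5), which detects long double-stranded RNA, rose by 0.74 and fell by 0.64, a fall not called with library A alone at 1 ug/ml (adjusted p = 0.115). EIF2AK2, the kinase PKR, rose by 1.22 and was not called in the next step (-0.65, adjusted p = 0.0884). DDX58, which encodes RIG-I, was not called in the first step (0.03) and fell by 0.67 in the next, again not called with library A alone (adjusted p = 0.0771). IFI16, a DNA sensor, was not called in the first (0.64, adjusted p = 0.0721) and fell by 1.84 in the next, ending -1.20 from untreated B11.

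The ubiquitin-like and ADP-ribosylation system held 8 members, all measured, of which 7 rose (median 0.95) and 4 then fell (median -0.82), or 7 and 2 with library A alone. ISG15, the ubiquitin-like protein itself, was at 41.8, 36.7 and 37.7 FPKM in untreated B11, 140.2, 161 and 133 at 1 ug/ml and 37.9, 42.3 and 33.6 at 10 ug/ml. THP1 levels of ISG15 were 29.3, 32.3 and 33.9 FPKM at 0, 27.8, 28.9 and 26.6 at 1 and 30.7, 30.0 and 25.2 at 10 ug/ml. ISG15 rose by 1.87 (SE 0.10, adjusted p = 2.24e-09) and fell by 1.90 (adjusted p = 2.86e-08). The B11 libraries at 0 and 10 ug/ml overlapped, with a net difference of -0.03 (SE 0.10, adjusted p = 0.829).

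USP18, the protease that removes ISG15 and also blocks the interferon receptor, was low, at 0.587, 0.468 and 0.962 FPKM in untreated B11, 5.48, 6.12 and 6.12 at 1 ug/ml and 1.59, 2.39 and 2.69 at 10 ug/ml. For USP18 the THP1 values were 1.90, 1.56 and 1.27 FPKM at 0, 1.22, 1.92 and 1.72 at 1 and 1.41, 0.819 and 1.47 at 10 ug/ml. USP18 rose by 2.06 (SE 0.19, adjusted p = 5.72e-07), and its fall of 1.11 (adjusted p = 0.00122) was not called with library A alone at 1 ug/ml (adjusted p = 0.0755). Its net rise was 0.94 (SE 0.19, adjusted p = 0.000818).

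UBE2L6, the enzyme that carries ISG15 to its ligase, rose once and stayed up, as did BST2. It had 18.2, 27.4 and 26.0 FPKM at 0, 44.8, 49.3 and 46.3 at 1 and 42.6, 48.2 and 51.1 at 10 ug/ml in B11, and 29.03, 32.6 and 25.7 at 0, 29.4, 30.6 and 31.9 at 1 and 30.7, 32.2 and 29.8 at 10 ug/ml in THP1. All treated B11 libraries lay above all others. UBE2L6 rose by 0.96 (SE 0.13, adjusted p = 2.76e-05) and was not called in the next step (0.01, adjusted p = 0.975). HERC5, the ISG15 ligase, rose by 0.93 (adjusted p = 0.000117), and its next step was -0.45 (adjusted p = 0.0576). HERC6, its relative, was called in neither step. Its values were 3.49, 2.01 and 4.48 FPKM at 0, 2.98, 2.90 and 2.003 at 1 and 1.49, 0.971 and 0.788 at 10 ug/ml in B11 and 3.62, 1.66 and 2.54 FPKM at 0, 3.24, 1.81 and 2.66 at 1 and 1.56, 3.12 and 1.55 at 10 ug/ml in THP1. The 3 B11 libraries at 10 ug/ml lay below all 15 others, with a net difference of -1.03 (SE 0.28, adjusted p = 0.00724) from untreated B11, and the other groups overlapped.

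The ADP-ribosyltransferases PARP9 and PARP14 rose by 1.08 and 0.86 and fell by 1.41 and 0.84, the fall of PARP14 not being called with library A alone (adjusted p = 0.0588). DTX3L, the ubiquitin ligase that pairs with PARP9, rose by 0.56 (adjusted p = 0.0392), a call lost without untreated library A or C or without library A or B at 1 ug/ml, and was not called in the next step (-0.53). PARP9 and DTX3L share 217 exonic bases on opposite strands.

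Transcription factors numbered 4, all measured. IRF7, which amplifies interferon production, was at 51.7, 38.0 and 46.6 FPKM in untreated B11, 65.9, 67.9 and 68.8 at 1 ug/ml and 14.3, 18.6 and 14.2 at 10 ug/ml. THP1 carried IRF7 at 19.9, 20.1 and 14.98 FPKM at 0, 16.8, 15.7 and 16.6 at 1 and 10.5, 9.96 and 9.54 at 10 ug/ml. IRF7 rose by 0.57 (SE 0.13, adjusted p = 0.00282), which was not called with library A alone at 1 ug/ml (adjusted p = 0.0728), and fell by 2.05 in the next step (adjusted p = 1.79e-07). The B11 doses did not overlap for IRF7, and 10 ug/ml was the lowest.

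STAT2 went the other way from most members from 0 to 1 ug/ml and fell as most of them did in the next step. It stood at 189, 174 and 171 FPKM in untreated B11, at 89.3, 83.7 and 82.0 at 1 ug/ml and at 63.9, 56.8 and 51.0 at 10 ug/ml. In THP1 STAT2 was 43.8, 44.7 and 41.4 at 0, 46.5, 40.4 and 48.7 at 1 and 48.5, 49.6 and 51.0 at 10 ug/ml. Every step of dose left the B11 libraries lower and without overlap, by -1.06 (SE 0.08, adjusted p = 1.34e-07) and then -0.57 (SE 0.08, adjusted p = 0.000453), and B11 at 10 ug/ml came closest to THP1.

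IRF9, the DNA-binding partner of STAT2, went from 62.1 ± 6.35 to 93.6 ± 4.42 and 36.7 ± 2.58 FPKM (SD, n = 3) in B11. It rose by 0.59 (SE 0.13, adjusted p = 0.00287), not called with library A alone (adjusted p = 0.0776), and fell by 1.33 (adjusted p = 1.74e-05). A readthrough gene on the same strand shares 48.4% of the exonic bases of IRF9, at a mean of 1.17 FPKM. IRF1, which is also an interferon gamma target, rose by 0.39 (SE 0.12, adjusted p = 0.0148), and its next step was -0.21 (adjusted p = 0.288). The call of the rise was lost without untreated library A or B. With library A alone at 1 ug/ml the rise was 0.36 and not called.

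SIGLEC1, or CD169, a sialic acid receptor of macrophages often read as a blood marker of interferon, was at 2.87, 1.85 and 2.71 FPKM in untreated B11, 11.4, 11.7 and 10.8 at 1 ug/ml and 0.832, 0.782 and 0.475 at 10 ug/ml. THP1 showed SIGLEC1 at 3.32, 2.13 and 2.33 FPKM at 0, 1.78, 2.12 and 1.90 at 1 and 2.02, 1.40 and 2.21 at 10 ug/ml. SIGLEC1 rose by 1.84 (SE 0.17, adjusted p = 6.81e-07) and fell by 2.87 (SE 0.17, adjusted p = 7.27e-08), and its level at 10 ug/ml lay below all other libraries. CXCL10, the chemokine of the set, reached 1.76 FPKM in untreated THP1 and at most 0.0776 in B11, and was not tested.

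**Figure D3:**
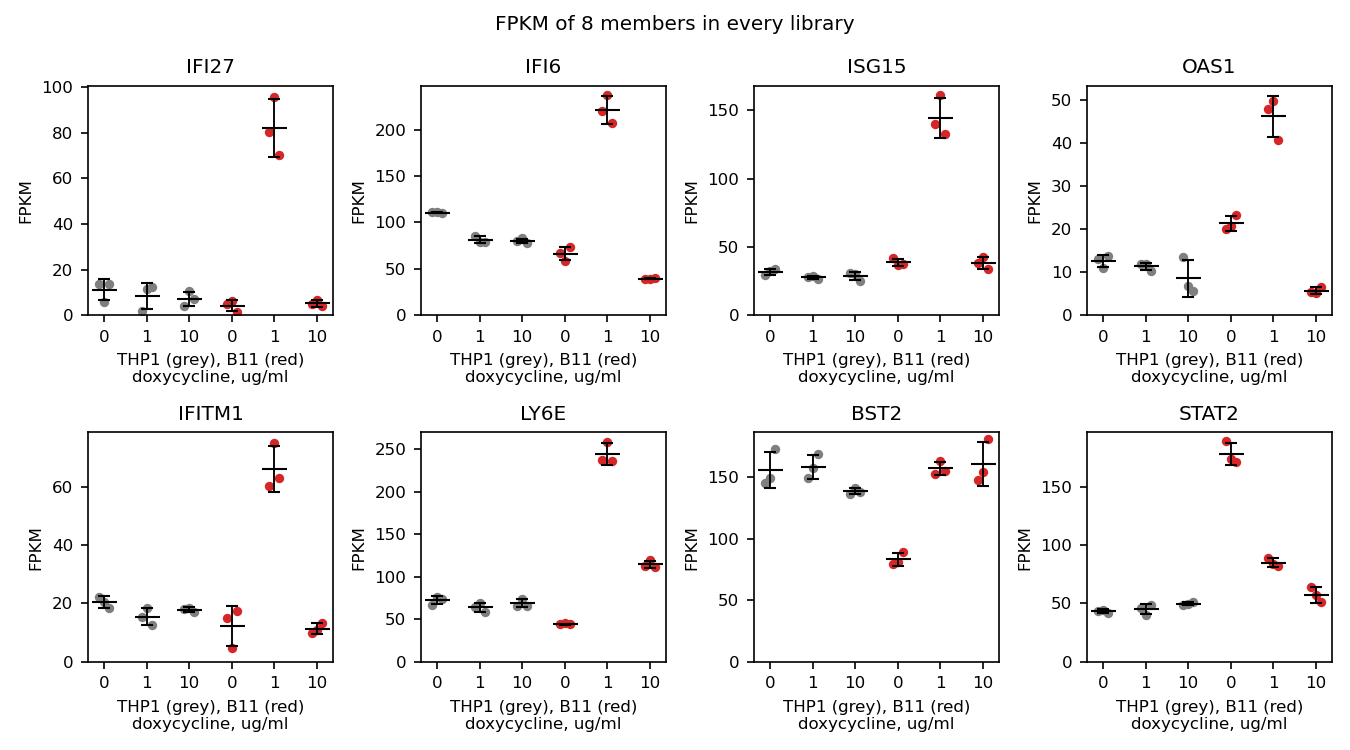
FPKM of 8 members in every library, with THP1 in grey and B11 in red at 0, 1 and 10 ug/ml doxycycline; points are plates, and the bar and whiskers are the mean and SD of 3 plates. IFI27, IFI6, ISG15, OAS1, IFITM1 and LY6E peak in B11 at 1 ug/ml, BST2 is lowest in untreated B11, and STAT2 falls from 178 FPKM in untreated B11 over the doses.

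THP1 given the same doses showed almost none of this. From 0 to 1 ug/ml limma called 0 of the 45 members in either direction, with 5 at an unadjusted p under 0.05, against 0.0057% of all genes higher and 0.0057% lower, and the members' differences ran from -0.66 to 0.32 with a median of -0.18. From 1 to 10 ug/ml limma again called 0 members, with 5 at an unadjusted p under 0.05, against 0.0513% of genes higher and 0.245% lower. From 0 to 10 ug/ml IFI6 fell by 0.46 (SE 0.07, adjusted p = 0.00667), IRF7 fell by 0.80 (SE 0.13, adjusted p = 0.00805) and none rose, against 0.923% of genes lower and 0.0968% higher. IRF7 was not called when the fit held these groups alone (adjusted p = 0.148). Over that span 36 of the 45 differences were negative, with a median of -0.20.

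The dose responses of the lines were compared directly. From 0 to 1 ug/ml the response was higher in B11 than in THP1 for 31 members and lower for 1, against 14.3% and 11.6% of all genes. From 1 to 10 ug/ml it was lower in B11 for 28 and higher for none, against 2.39% lower and 2.25% higher. Scaling to the sum over named IDs moved the calls among all genes from 2509 higher and 2035 lower to 3058 and 1561 in the first of these, and from 395 and 419 to 305 and 557 in the other. With library A alone at 1 ug/ml, 28 members were higher and 1 lower in the first, and the 28 lower in the other became 18. From 0 to 10 ug/ml it was higher for 7 and lower for 8, against 16% and 13.8% of all genes, which is near the background.

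Untreated B11 differed from untreated THP1 in both directions, with 13 members higher and 11 lower (median -0.04), against 23.5% of genes higher and 23.6% lower, so the members as a set stood near the background. STAT2 was higher by 2.02 (SE 0.08, adjusted p = 7.39e-11), XAF1 by 1.53, IFI35 by 1.47, IRF7 by 1.27 and RSAD2 by 1.22. BST2 was lower, at -0.90 (SE 0.08, adjusted p = 4e-07), and MX1 at -1.12, CMPK2 at -0.96, OASL at -0.80, IFI6 at -0.73 and LY6E at -0.69 were lower too. The call of MX1 was lost without untreated B11 library A (adjusted p = 0.0568). Of the 4 transcription factors, STAT2, IRF7 and IRF9 were higher in B11 and IRF1 was not called.

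At 1 ug/ml the lines stood apart. In B11, 37 members were higher than in THP1 and none was lower, with a median of 1.12, against 15% of genes higher and 14.8% lower. The members called higher numbered 27 with library A alone. IFI27 was higher by 3.44 (SE 0.55, adjusted p = 0.000232), IFIT1 by 2.65 (SE 0.18, adjusted p = 4.94e-08) and ISG15 by 2.34 (SE 0.10, adjusted p = 1.01e-09). BST2 was not called at -0.01 (SE 0.08, adjusted p = 0.938), and MX1 was not called at -0.45 (SE 0.32, adjusted p = 0.33).

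At 10 ug/ml 10 members were higher in B11 and 9 lower, with a median of 0.04, against 16.4% of genes higher and 16% lower. XAF1 was highest at 1.06 (SE 0.12, adjusted p = 7.51e-06), and MX1 was lowest at -2.41 (SE 0.32, adjusted p = 4.29e-05), followed by IFI16 at -1.46 and OAS3 at -1.04. STAT2, so far above THP1 without doxycycline, was not called there, at 0.19 (SE 0.08, adjusted p = 0.0945).

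**Figure D4:**
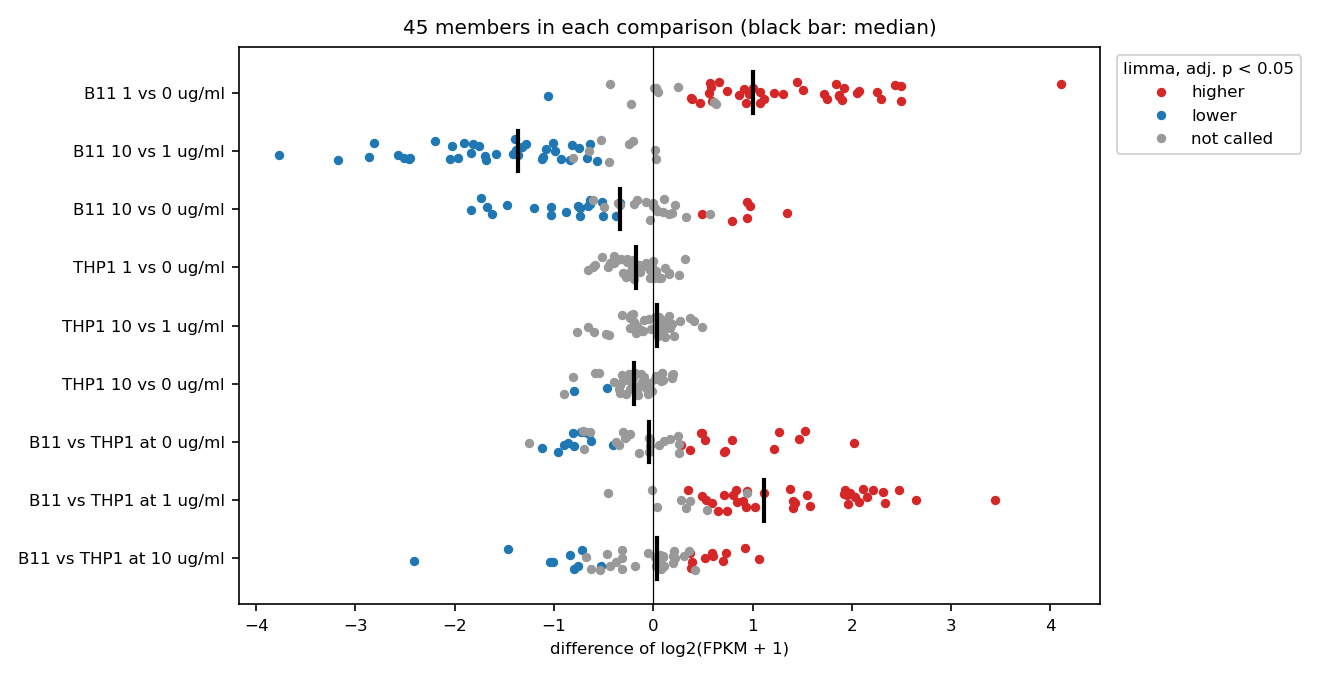
Differences of log2(FPKM + 1) of the 45 members in the 3 dose comparisons of each line and the 3 comparisons of the lines at equal dose; each point is 1 member, coloured by limma call, and the black bar is the median. Points of B11 at 1 against 0 ug/ml centre on 1.01 and those of B11 at 10 against 1 ug/ml on -1.37, while the 3 THP1 rows stay between -0.90 and 0.49.

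The rest of the pathway was read from lists of other genes. Of 21 interferon genes none passed the minimum. IFNB1, the interferon beta gene, was listed at 0 in all libraries but 3, which held 0.355 FPKM in library C of THP1 at 1 ug/ml and 0.577 and 0.282 in libraries A and C of B11 at 1 ug/ml. IFNL1 was listed at 0 in all but library B of B11 at 1 ug/ml, at 0.0872 FPKM. Levels this low rest on few fragments, and secreted protein was not measured.

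Of 10 measured genes for receptors, kinases and STATs, 2 rose and 2 fell from 0 to 1 ug/ml in B11 (median -0.16), and 1 rose and 2 fell from 1 to 10 ug/ml (median -0.19). For this and the lists below, 19.8% of all genes rose and 17.3% fell in the first step, and 5.69% rose and 7.12% fell in the next. The counts of this list in the first step thus stood near the background. With library A alone limma called 1 higher and 1 lower in the first step and 0 in the next, where 3 were at an unadjusted p under 0.05. TYK2 went from 411 ± 58.1 to 226 ± 23.8 and 134 ± 21.4 FPKM (SD, n = 3) and fell in both steps (-0.86 and -0.76), the latter not called with library A alone (adjusted p = 0.0936). JAK1 fell by 0.61 in the first step (adjusted p = 0.0188), and IL10RB, a chain of the interferon lambda receptor, rose by 0.30, and neither was called with library A alone (adjusted p = 0.156 and 0.275).

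Of 19 measured sensors and adaptors that are not members, 3 rose and 9 fell in the first step (median -0.34), and 5 fell in the next (median -0.10). These were 1, 7 and 3 with library A alone. IRF5, a factor downstream of Toll-like receptors, fell by 0.90 from 0 to 1 ug/ml, SAMHD1, which depletes nucleotides, by 0.49, and STING1, the adaptor of DNA sensing, by 0.48. SAMHD1 fell again from 125 ± 2.34 to 45.8 ± 1.61 FPKM (SD, n = 3), by 1.43 on the log2 scale (adjusted p = 7.81e-11), and MYD88, the adaptor of most Toll-like receptors, by 1.59. Of 10 negative regulators 3 rose and 3 fell in the first step (median -0.07), with PTPN6, the phosphatase SHP-1, at 1.45 (SE 0.10, adjusted p = 3.83e-08) PTPN11 at 0.57, PTPN2 at -0.92 and PIAS1 at -0.71. In the next step CISH, a SOCS family inhibitor, rose by 0.55 and PTPN6 fell by 0.61, the latter not called with library A alone (adjusted p = 0.0893). That setting called 2 higher and 3 lower in the first step, and 1 higher in the next.

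MHC class I presentation, which interferons are known to raise, was split in the first step and did not fall with the members in the next. Of 17 genes, 5 rose and 5 fell in the first step (median -0.06), and 6 rose and none fell in the next (median 0.21). Library A alone gave 3 higher and 4 lower, then 4 higher. HLA-B was at 1133, 1179 and 1154 FPKM at 0, 740.2, 791 and 757 at 1 and 1057, 1010.0 and 1010.0 at 10 ug/ml in B11, lowest at 1 ug/ml without overlap. It fell by 0.60 (adjusted p = 5.17e-07) and rose by 0.43 (adjusted p = 0.000114), and HLA-C (-0.77, 0.36) did the same. B2M, the shared light chain, fell by 1.07 in the first step (adjusted p = 1.11e-08). The 5 that rose in the first step were PSMB9 by 0.81, PSME2, a proteasome activator, by 0.75, PSMB8 by 0.47, TAP2 by 0.39 and TAP1 by 0.24. With library A alone the rises of PSMB9 (0.53) and TAP1 (0.26) were not called.

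Of 36 measured genes among 40 other interferon-inducible ones, 12 rose and 5 fell in the first step (median 0.23), and 15 fell and none rose in the next (median -0.38). Library A alone gave 11 higher and 2 lower, then 10 lower. WARS1, a tryptophan tRNA synthetase, rose by 2.36 (SE 0.28, adjusted p = 1.1e-05) and LAP3, a peptidase, by 1.08. HELZ2, a helicase coactivator, rose by 1.11 and fell by 1.29. APOBEC3F, a cytidine deaminase that edits viral DNA, rose by 1.35, and PARP12, which acts against alphaviruses, fell by 1.57 in the next step. IFI30, a lysosomal thiol reductase, fell in both steps (-0.71 and -0.75).

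**Figure D5:**
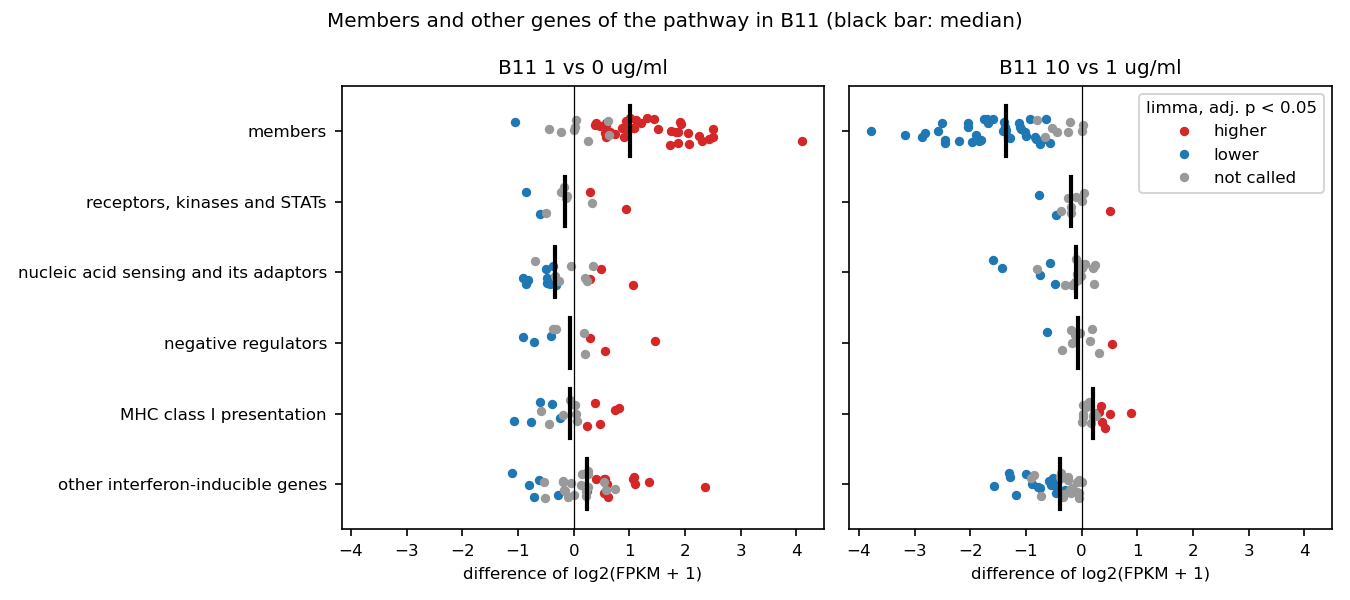
Differences of log2(FPKM + 1) in B11 at 1 against 0 (left) and 10 against 1 ug/ml (right) for the 45 members and for 5 lists of other genes of the pathway; each point is 1 gene, coloured by limma call, and the black bar is the median. The members centre on 1.01 and -1.37, and the medians of the other lists stay between -0.38 and 0.23.

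Markers of the monocytic cell also moved over the same doses. Of the 12, 4 rose and 7 fell from 0 to 1 ug/ml, against 19.8% and 17.3% of all genes. From 1 to 10 ug/ml 7 fell and none rose, against 7.12% and 5.69%. Their summed level was 5095 to 6222, 2508 to 2651 and 2092 to 2135 FPKM at 0, 1 and 10 ug/ml. CD14, a coreceptor for bacterial lipopolysaccharide, rose by 1.94 (SE 0.15, adjusted p = 1.39e-07) and fell by 1.84, and ITGAM, an integrin chain of myeloid cells, rose by 2.76 (SE 0.20, adjusted p = 5.17e-08) and fell by 1.24. LYZ, which encodes lysozyme, and CSF1R, the receptor for a macrophage growth factor, fell in both steps. With library A alone at 1 ug/ml, 3 markers rose and 7 fell, and 3 fell in the next step, where ITGAM (adjusted p = 0.0747) and LYZ (adjusted p = 0.0558) were not called. CD79B, a chain of the B cell receptor complex, rose by 1.02 (SE 0.25, adjusted p = 0.00521) from 0 to 1 ug/ml, not called with library A alone (adjusted p = 0.203). The part of these shifts in the results for the members was not tested.

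Members with and without the response element core were set side by side as a description. IFIT2, IFITM2, MX2, OAS2, OASL, IRF7, USP18, SIGLEC1, TRIM22 and LY6E had no promoter in the RefSeq table and are in neither set. All of these but IFITM2 were called higher from 0 to 1 ug/ml in B11. Of the 22 measured members with the core, 19 rose from 0 to 1 ug/ml and none fell (median 1.17), and of the 13 without it 8 rose and 1, STAT2, fell (median 0.59). From 1 to 10 ug/ml 18 of the 22 fell (median -1.55) and 10 of the 13 (median -0.99). In the fit with library A alone, 18 of the 22 rose against 4 of the 13, and 11 fell in the next step against 7. From 0 to 10 ug/ml 2 of the 22 rose and 7 fell (median -0.01), and 1 of the 13 rose and 9 fell (median -0.64). Over all genes 21.6% rose and 21.3% fell in that span, in the fit with all 18 libraries. In the first step 19.8% of all genes rose and 17.3% fell, and in the next 5.69% rose and 7.12% fell.

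Levels among the members ranged widely per length. IFITM2, IFITM3, BST2 and LY6E had a mean of at least 100 FPKM over the 18 libraries, 20 members had 10 to 100 and 21 had less. Whether the reads kept their strand is not stated in these sources, so genes that overlap could share reads. XAF1 shares 38.3% of its exonic bases with a gene on the opposite strand (PRAL, at a mean of 0.906 FPKM), and IRF1 shares 22.0% with C5orf56 (5.02 FPKM). The IFIT and OAS families hold close relatives, among which the authors' counting could have split reads.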

How the data were processed

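Total RNA of 18 plates was sequenced, in 6 groups of 3. The authors' deposited values are read as FPKM, made with HISAT2 on GRCh38 and Cuffnorm per the submitters' processing notes. The unit was inferred from that tool and from the values, which summed to 1008594 to 1200682 per library. Tool versions, the annotation, the strand setting and the scaling option are not stated there. Symbols and positions came from GENCODE 29 on GRCh38, which named 57047 IDs and left 3611 unnamed. Depth was estimated from the smallest values of low genes and did not enter the fit. Members and lists were chosen with earlier results of these data known.

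Genes that reached 1 FPKM in 3 or more of 18 libraries were kept, and log2(FPKM + 1) was fitted with limma 3.58.1 in R 4.3.3 (means of 6 groups, intensity trend, 12 residual degrees of freedom). The pseudocount of 1 understates changes of low genes. Benjamini-Hochberg adjustment ran over all genes tested, for each of 12 comparisons separately, with calls under 0.05, and every adjusted p is from limma. Lists are described by counts and medians. The fit was tested on simulated data, with no outcome reported here. Values in every library are given for members with a difference of at least 2 in a B11 step, for those called in neither or in the opposite direction, and for examples of each role. From the pathway lists, genes with the smallest p were named, of which some are not reported here. Plates of a group correlated at 0.938 to 0.957 across genes. The labels give no batch. Alternatives were the pseudocount, the filter, the scaling, the moderation, the groups fitted, the plate letter as a block, leaving out single libraries and, chosen after seeing the data, leaving out 2 libraries. Promoter sequences came from RefSeq (GRCh38.p14). Plots used matplotlib 3.10.9 (Python 3.11.15).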

Additional observations from a re-analysis of the deposited data

Results flagged for a closer look

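The dose response of B11 differed from that of THP1, by the limma test of the difference itself, for 32 members from 0 to 1 ug/ml, 28 from 1 to 10 ug/ml and 15 from 0 to 10 ug/ml. Over all genes 14.3% were higher and 11.6% lower from 0 to 1 ug/ml, and 2.25% and 2.39% from 1 to 10 ug/ml. From 0 to 10 ug/ml 16% of all genes were higher and 13.8% lower, so the count of 15 stood near the background. The values below are the B11 step minus the THP1 step on the log2(FPKM + 1) scale, for the members with a difference of at least 2 in a B11 step.

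From 0 to 1 ug/ml the response of IFI27 was higher in B11 by 4.70, that of IFITM1 by 2.89, OASL by 2.75, LY6E by 2.61 and OAS3 by 2.59. IFIT1 differed by 2.48, TRIM22 by 2.42, OAS2 by 2.36, EPSTI1 by 2.25 and IFI6 by 2.16. SIGLEC1 differed by 2.12, USP18 by 2.03, OAS1 by 1.21 and IRF7 by 0.72.

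From 1 to 10 ug/ml the response was lower in B11, by -3.82 for IFI27, -2.99 for OAS3, -2.83 for SIGLEC1, -2.66 for IFITM1 and -2.63 for OAS2. IFIT1 differed by -2.57, IFI6 by -2.43, TRIM22 by -2.40, OAS1 by -2.36 and EPSTI1 by -2.22. OASL differed by -1.75, IRF7 by -1.39 and LY6E by -1.19. For USP18 the difference between the lines was not called in this step.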

How the results depend on the processing

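Of the 37 members called in B11 at 1 against 0 ug/ml, 29 stayed called under every alternative that tested them, of 16 in all. So did 25 of 37 at 10 against 1 and, of 15 alternatives in all, 18 of 25 at 10 against 0. Some members were not tested under every alternative, because a filter removed them. A minimum mean of 5 FPKM left 32 members to test and 16 calls at 10 against 0 ug/ml in B11 (25 as reported), and gave 1 call at 10 against 1 ug/ml in THP1, where 0 were reported. Without a filter 1 member was called at 1 against 0 ug/ml in THP1 (0 as reported), and with only the groups compared 1 at 10 against 0 (2 as reported). Without B11 libraries B and C at 1 ug/ml the response from 1 to 10 ug/ml differed between lines for 18 members (28 as reported). Leaving out 1 library moved IFITM1 at 10 against 0 ug/ml in B11 from 0.05 to between -0.485, without untreated library B, and 0.371. The cause was not tested. Leaving out 1 library gave 33 to 35 calls at 1 against 0, 35 to 38 at 10 against 1 and 22 to 24 at 10 against 0 ug/ml in B11. Over 45 pairs of libraries with the same plate letter, deviations from group means correlated at -0.07 to 0.092, so no shared pattern by letter was seen. Whether plates of a letter were handled together is not stated. With the letter as a replicate block these counts were 38, 37 and 24, and no other count moved by over 1.5 times. Depth limits the members near 1 FPKM.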
